A study of Mus musculus with 12 samples.

Results

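The small nucleolar RNAs (snoRNAs) of boxes H/ACA and C/D were followed in mouse fibroblasts after silencing of UBF (gene Ubtf), which drives transcription of rRNA genes by RNA polymerase I. Members were the probe sets whose only annotated gene symbol is Snora or Snord followed by a number. This gave 56 of the 35512 probe sets, which stand for 51 of the 19938 named genes. Of these, 20 genes (23 probe sets) were Snora genes of the H/ACA class and 31 genes (33 probe sets) were Snord genes of the C/D class. Another 41 probe sets carry a snoRNA symbol together with other symbols and were not used, 24 of them from the Snord116 cluster. The U3 RNA is listed under another symbol (Rnu3a), so it is no member.

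The cells were NIH3T3, an immortalised mouse fibroblast line, measured on 12 Affymetrix arrays of total RNA in 4 groups of 3 biological replicates. Oligo 1 and oligo 2 are independent siRNAs against UBF, sirEGFP is an siRNA named for EGFP, and Mock cells received the lipid reagent (Dharmafect 2) and no siRNA. Each siRNA was used at 40 nM, and every group was harvested after 48 h. All groups, Mock included, are transient transfections of 1 line, and no untransfected cells are among them.

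SnoRNAs are short RNAs of the nucleolus that pair with ribosomal RNA (rRNA) precursors. H/ACA RNAs carry the enzyme dyskerin (Dkc1) to uridines that become pseudouridine, and C/D RNAs carry fibrillarin (Fbl) to sites of ribose methylation. A few, among them U3, U8, U14, U17 and U22, are needed for cleavage of the precursor itself. Most vertebrate snoRNAs have no promoter of their own. They lie in introns of host genes, are released when the host transcript is spliced, and so depend on RNA polymerase II. The hosts are often ribosomal protein genes or non-coding Snhg (small nucleolar RNA host gene) transcripts.

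Ubtf lay between 7.49 and 7.998 on the 6 knockdown arrays, against 8.04 to 8.68 on the 6 control arrays (log2 expression values, as are all levels here). Its change of -0.67 against both controls was called lower at an adjusted p under 0.05 (limma). Against sirEGFP alone its change of -0.58 was not called. Of the 9 fibroblast markers examined, 8 averaged 6.92 or more, and Lum averaged 3.20. Array medians lay between 5.38 and 5.54. Within groups, 1 axis of variation held 41.5% of the variance, with oligo 1 arrays 1 and 2 and sirEGFP array 1 farthest out. Counts are therefore also given without these 3 arrays. The 51 snoRNA probe sets averaged between 3.91 (Snord37) and 10.31 (Snord16a), with H/ACA averages between 4.30 (Snora16a) and 9.17 (Snora3). Probes differ in brightness, so these averages were not compared between genes. The averages of 5 members (Snora16a, Snora20, Snord15a, Snord37 and Snord61) were in the dimmest 25% of all genes, below 4.48.

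After UBF knockdown the snoRNAs shifted downwards as a group. Against both controls together, 23 of the 51 fell and none rose at an adjusted p under 0.05 (limma, Benjamini-Hochberg over all 19938 genes). Over all genes 4.93% were called, and 1.87% were called lower. The members' median change was -0.57 on the log2 scale, against 0.02 over all genes. In all, 49 of the 51 changes were below 0, and 36 were lower at an unadjusted p under 0.05, as were 6.34% of all genes. The 9 H/ACA RNAs that fell were Snora7a, Snora21, Snora31, Snora44, Snora69, Snora70, Snora73a, Snora73b and Snora74a. The 14 C/D RNAs were Snord14e, Snord15b, Snord22, Snord38a, Snord47, Snord49a, Snord49b, Snord52, Snord58b, Snord73a, Snord73b, Snord87, Snord96a and Snord104. The count was 9 without Mock array 1, 11 without Mock array 3, sirEGFP array 3 or oligo 2 array 2, 13 without oligo 1 array 3, 10 without the 3 outlying arrays, and 8 with adjustment over all probe sets. Snora21, Snora73a, Snora73b, Snora74a, Snord15b, Snord49a and Snord52 kept the call under all 20 alternatives. RNA of whole cultures was measured, in which fewer cells holding an RNA and less of it per cell cannot be told apart. A probe set inside a snoRNA also reads any unspliced host transcript, and these values cannot tell the forms apart.

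**Figure D1:**
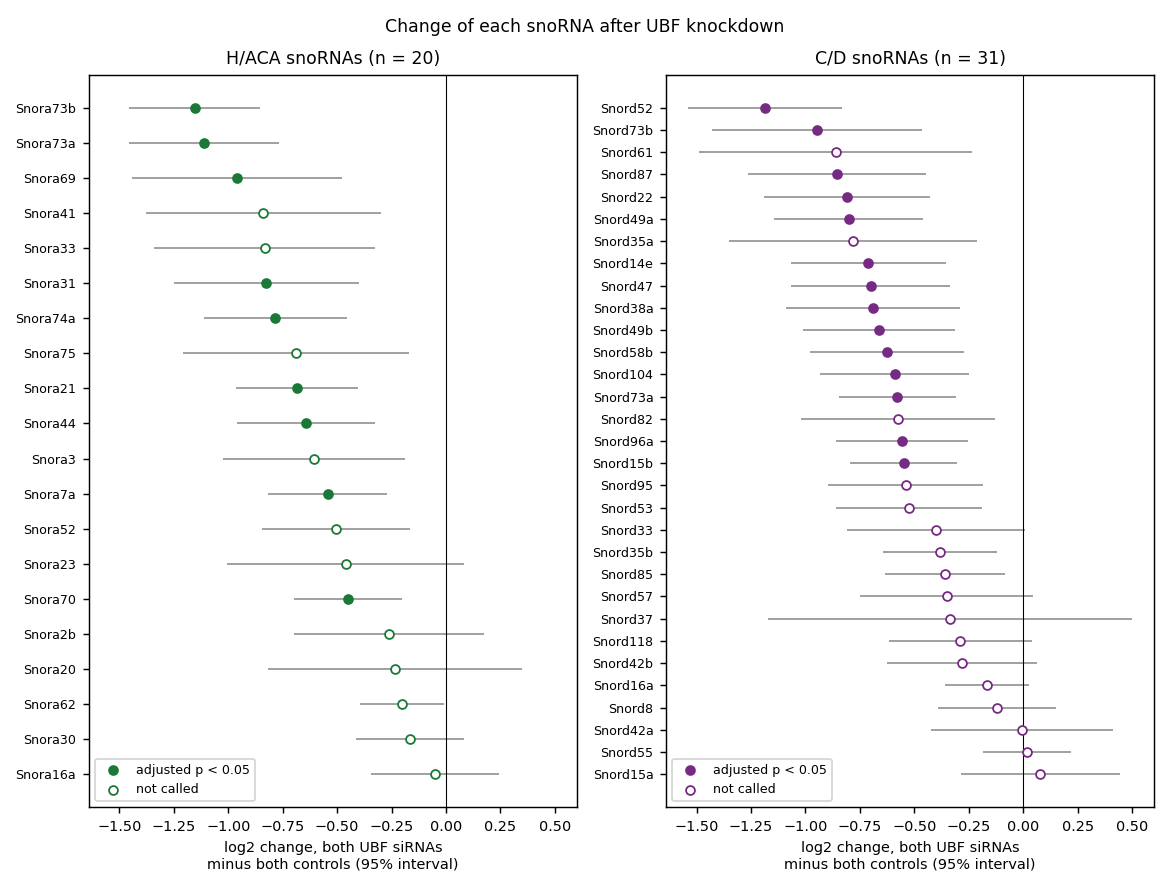
Log2 change of each snoRNA, both UBF siRNAs minus both controls (points), with its 95% interval (lines), for 20 H/ACA and 31 C/D snoRNAs, filled where the adjusted p was under 0.05. Nearly all points lie left of 0, from -1.19 (Snord52) to 0.08 (Snord15a), and the 23 filled points are all below 0.

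The H/ACA pair Snora73a and Snora73b, copies of the U17 RNA that takes part in making small-subunit rRNA, fell furthest in their class. Snora73a stood at 6.31, 7.36 and 6.91 with oligo 1, 6.79, 7.03 and 7.11 with oligo 2, 7.68, 8.35 and 8.41 with sirEGFP, and 7.88, 7.95 and 7.91 in Mock. Snora73b stood at 6.05, 6.95 and 6.50 with oligo 1, 6.37, 6.41 and 6.47 with oligo 2, 7.30, 7.78 and 7.94 with sirEGFP, and 7.69, 7.41 and 7.57 in Mock. For both RNAs every knockdown array lay below every control array, and oligo 1 array 2 came nearest to the controls. Against both controls Snora73a fell by 1.11 (SE 0.16, adjusted p = 0.0012, limma) and Snora73b by 1.15 (SE 0.14, adjusted p = 0.00031). On the linear scale Snora73a fell by 53.7% and Snora73b fell by 55.1%. Against sirEGFP alone the changes were -1.23 (adjusted p = 0.0047) and -1.21 (adjusted p = 0.0026). Each was called with each siRNA against each control. Of the 4 comparisons by siRNA and control, Snora73b lost its call only for oligo 1 against Mock, without Mock array 1 (adjusted p up to 0.0526) or over all probe sets. The calls of Snora73a against sirEGFP were lost without sirEGFP array 2 with oligo 1, and without sirEGFP array 2 or 3 or oligo 2 array 1 or over all probe sets with oligo 2, and those against Mock under 6 and 7 of the 20 alternatives with oligo 1 and oligo 2.

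Snord52, a C/D methylation guide, had the largest fall in its class. Its values were 6.91, 7.12 and 7.09 with oligo 1, 7.01, 6.45 and 6.91 with oligo 2, 7.90, 7.74 and 8.33 with sirEGFP, and 8.62, 7.58 and 8.42 in Mock. The highest knockdown array, at 7.12, was below the lowest control array, Mock 2 at 7.58. The group means were 7.04 ± 0.12 (oligo 1) and 6.79 ± 0.30 (oligo 2), against 7.99 ± 0.31 with sirEGFP and 8.21 ± 0.55 in Mock (SD, n = 3 each). The change against both controls was -1.19 (SE 0.17, 95% interval -1.54 to -0.83, adjusted p = 0.00092, limma). Against sirEGFP alone it was -1.08 (adjusted p = 0.014), a call lost without sirEGFP array 3 (adjusted p = 0.114, the highest of 20 alternatives, the lowest being 0.0024) and over all probe sets. Snora44, from the Snhg12 host, was the only other member with no overlap between the 6 knockdown and the 6 control arrays. Such a gap was seen for 4 of the 51 members and for 0.692% of all genes.

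**Figure D2:**
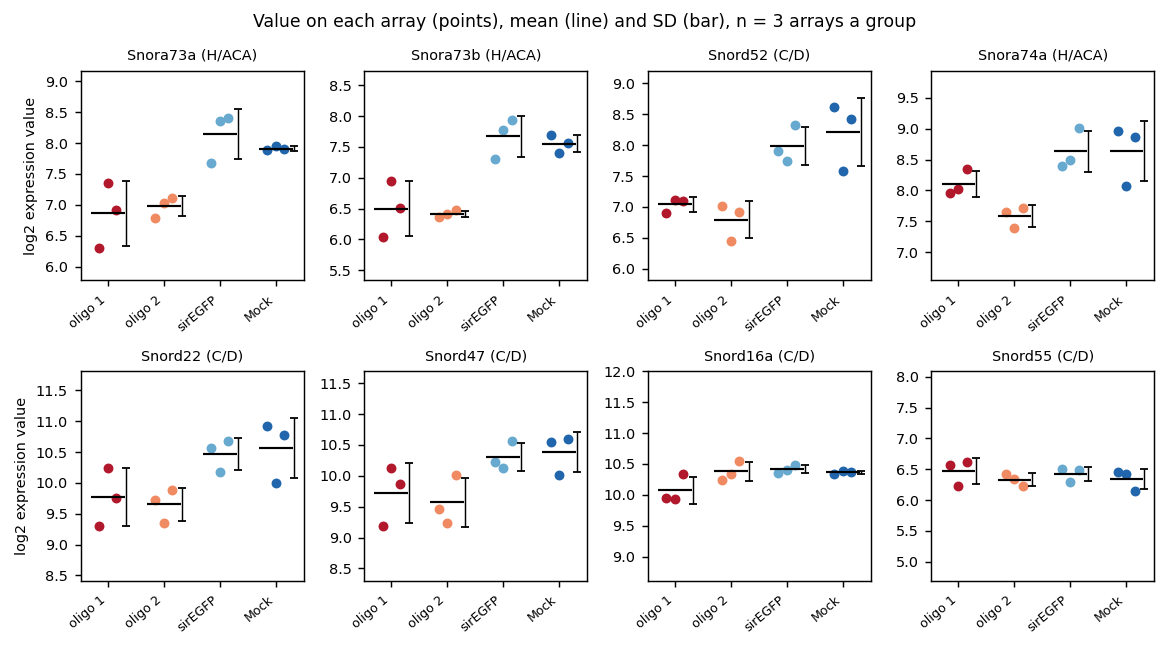
Log2 expression value of 8 snoRNAs on each array (points), with the mean (line) and SD (bar) of 3 arrays a group, for oligo 1, oligo 2, sirEGFP and Mock. Snora73a, Snora73b and Snord52 show a clear gap between knockdown and control arrays, Snora74a, Snord22 and Snord47 are lower with overlap, Snord16a is lower only with oligo 1, by a small gap, and Snord55 overlaps in all groups. All panels span the same log2 range, and axes do not start at 0.

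Other RNAs that take part in cleavage of the rRNA precursor were measured too. Of a list of 11 such snoRNAs, 6 were measured, of which 5 fell against both controls and Snord118 was not called. The 5 include Snora73a and Snora73b, which share a host. In the same comparison 23 of all 51 members and 1.87% of all genes were called lower. Snord22 (U22, needed for small-subunit rRNA) stood at 9.31, 10.25 and 9.75 with oligo 1 and 9.72, 9.35 and 9.88 with oligo 2. Its control values were 10.56, 10.18 and 10.67 with sirEGFP and 10.92, 10.01 and 10.77 in Mock. Only oligo 1 array 2 reached into the control range, and the change was -0.81 (SE 0.18, adjusted p = 0.016, limma), lost without Mock array 1 or over all probe sets. Snord14e, a copy of U14, which acts on small-subunit rRNA, stood at 9.04, 9.80 and 9.43 with oligo 1, 9.20, 8.81 and 9.62 with oligo 2, 9.94, 9.90 and 10.29 with sirEGFP, and 10.32, 9.57 and 10.14 in Mock. It lay lower on all 6 knockdown arrays than on the 3 sirEGFP arrays and overlapped with Mock array 2. Its change was -0.71 (SE 0.17, adjusted p = 0.023), a call lost under 7 of the 20 alternatives.

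Snora74a (U19) had a larger fall with oligo 2 than with oligo 1, a difference that was not called in the fit reported here. Its values were 7.95, 8.02 and 8.35 with oligo 1, 7.66, 7.39 and 7.72 with oligo 2, 8.39, 8.49 and 9.02 with sirEGFP, and 8.97, 8.07 and 8.86 in Mock. All 3 oligo 2 arrays lay below all 3 oligo 1 arrays, as for 9 of the 51 members and 9.14% of all genes. Oligo 1 array 3 lay above Mock array 2. The change against both controls was -0.78 (SE 0.15, adjusted p = 0.0089, limma), and that of oligo 2 minus oligo 1 was -0.52 (95% interval -0.98 to -0.05, adjusted p = 0.28). Snord118 (U8, needed for large-subunit rRNA) differed most between the siRNAs. It stood at 4.50, 4.57 and 4.32 with oligo 1, 4.93, 5.48 and 5.39 with oligo 2, 4.54, 4.96 and 5.58 with sirEGFP, and 5.39, 5.43 and 5.03 in Mock. The oligo 1 arrays lay below all oligo 2 and all Mock arrays, and reached to just above the lowest sirEGFP array. No comparison called it in the fit reported here, the closest being oligo 2 minus oligo 1 at 0.80 (SE 0.22, adjusted p = 0.057). Its adjusted p passed the threshold under 8 of the 20 alternatives. These were array weights (0.00047), the replicate block (0.036), centring (0.029), quantile normalization (0.027), the filter on dim genes (0.04998), and leaving out sirEGFP array 1 (0.022), sirEGFP array 3 (0.018) or oligo 2 array 1 (0.043). The highest adjusted p was 0.206.

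Among the other H/ACA RNAs, Snora69 had the largest fall, at -0.96 (SE 0.23, adjusted p = 0.023, limma). Its values were 5.58, 6.70 and 6.09 with oligo 1, 5.70, 5.69 and 6.35 with oligo 2, 6.74, 6.61 and 7.28 with sirEGFP, and 7.63, 6.34 and 7.27 in Mock. Mock array 2 and sirEGFP array 2 lay within the knockdown range. Snora31 fell by 0.83 (SE 0.20, adjusted p = 0.026), Snora21 by 0.68 (SE 0.13, adjusted p = 0.0073) and Snora44 by 0.64 (SE 0.15, adjusted p = 0.021). Snora21 averaged 6.17 ± 0.30 (oligo 1) and 5.91 ± 0.04 (oligo 2), against 6.68 ± 0.32 with sirEGFP and 6.78 ± 0.29 in Mock (SD, n = 3 each). Snora7a fell by 0.54 and Snora70 by 0.45, with adjusted p of 0.023 and 0.035. Changes of the same size in Snora41 (-0.84, adjusted p = 0.075) and Snora33 (-0.83, adjusted p = 0.059) did not pass. Their SEs of 0.25 and 0.24 were among the larger ones in the class. Snora16a, the dimmest H/ACA member, changed by -0.05 with an interval of -0.34 to 0.24.

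Among the other C/D RNAs that were called, Snord73b (-0.95, adjusted p = 0.025), Snord87 (-0.85, adjusted p = 0.018) and Snord49a (-0.80, adjusted p = 0.0098) had the largest falls (limma). Snord49a stood at 6.32, 6.82 and 6.46 with oligo 1, 6.76, 5.99 and 6.62 with oligo 2, 7.25, 6.78 and 7.30 with sirEGFP, and 7.78, 7.04 and 7.62 in Mock. Its groups overlapped only through oligo 1 array 2 (6.82) and sirEGFP array 2 (6.78). Snord47, from the Gas5 host, averaged 9.73 ± 0.48 (oligo 1) and 9.57 ± 0.40 (oligo 2), against 10.31 ± 0.23 with sirEGFP and 10.39 ± 0.32 in Mock (SD, n = 3 each), and fell by 0.70 (adjusted p = 0.028). The other called members ran from -0.69 (Snord38a) to -0.55 (Snord15b), with Snord49b, Snord58b, Snord104, Snord73a and Snord96a between them. Snord38a and Snord104 stood closest to the threshold, each with an adjusted p of 0.048, and lost the call under 13 and 14 of the 20 alternatives. Snord15b, by contrast, had an adjusted p of 0.013 and an SE of 0.12. Snord61, a dim member that was not called, stood at 3.36, 4.85 and 3.92 with oligo 1, 3.92, 3.28 and 4.33 with oligo 2, 5.62, 5.10 and 4.89 with sirEGFP, and 4.52, 3.43 and 5.26 in Mock. Its knockdown arrays all lay below the sirEGFP arrays and overlapped with Mock. It changed by -0.86 against both controls (SE 0.29, adjusted p = 0.12) and by -1.26 against sirEGFP (SE 0.36, adjusted p = 0.10), the lowest value of the 51 members in that comparison.

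Some C/D RNAs had changes near 0 against both controls. Snord16a, from Rpl4, stood at 9.95, 9.94 and 10.33 with oligo 1, 10.25, 10.34 and 10.55 with oligo 2, 10.35, 10.41 and 10.48 with sirEGFP, and 10.34, 10.39 and 10.36 in Mock. The oligo 2 values overlapped with both controls, while all 3 oligo 1 arrays lay just below all 6 control arrays. Its change against both controls was -0.16 with an interval of -0.36 to 0.03, and that of oligo 1 against sirEGFP was -0.34 (adjusted p = 0.23, limma). Snord55 changed by 0.02 (interval -0.19 to 0.22), Snord42a by -0.005 (interval -0.42 to 0.41) and Snord15a by 0.08 (interval -0.29 to 0.44). The intervals of Snord16a, Snord55, Snord42a and Snord15a leave no room for a fall as large as that of Snord52. Snord37, in the dimmest 25%, had the widest interval of the class, -1.17 to 0.50, around a change of -0.34.

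The shift was present array by array. Each snoRNA was centred on its mean over the 12 arrays and the members were averaged. The H/ACA mean was -0.58, 0.07 and -0.10 with oligo 1, -0.36, -0.60 and -0.23 with oligo 2, 0.19, 0.09 and 0.45 with sirEGFP, and 0.74, -0.05 and 0.38 in Mock. The C/D mean was -0.28, -0.05 and -0.08 with oligo 1, -0.25, -0.73 and -0.17 with oligo 2, 0.35, -0.07 and 0.21 with sirEGFP, and 0.62, -0.00 and 0.45 in Mock. All 3 oligo 2 arrays lay below all 6 control arrays in both classes, while oligo 1 array 2 lay above Mock array 2 among H/ACA RNAs and above sirEGFP array 2 among C/D RNAs. Another 15 small nuclear or cytoplasmic RNAs, such as Rny1, Rmrp and Rn7sk, had means of -0.24 to -0.01 on the knockdown arrays and 0.00 to 0.26 on the control arrays. Against both controls none of these 15 was called in limma, and their median change was -0.15. Of the 15, 5 were lower at an unadjusted p under 0.05, as were 6.34% of all genes.

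**Figure D3:**
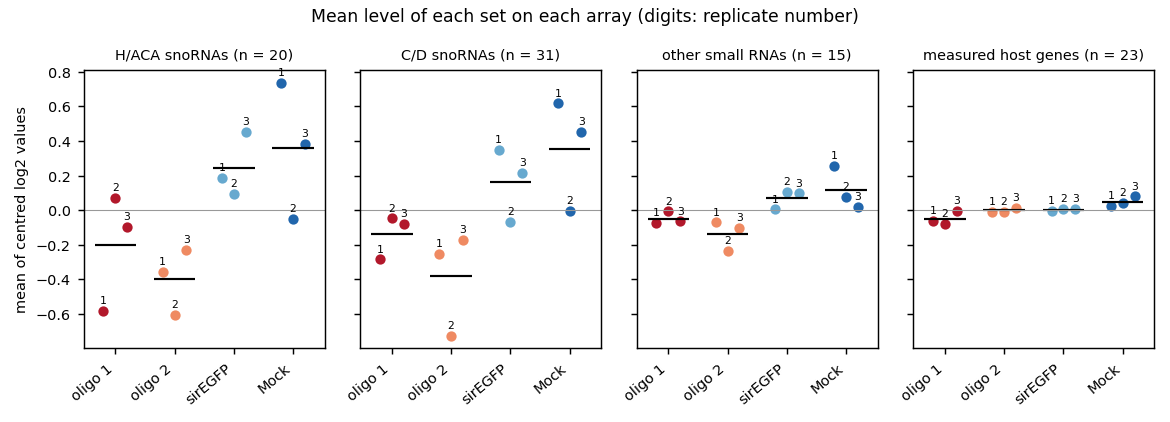
Mean of centred log2 values on each array (points, with replicate numbers) and group means (lines) for 20 H/ACA snoRNAs, 31 C/D snoRNAs, 15 other small RNAs and 23 measured host genes, in oligo 1, oligo 2, sirEGFP and Mock. The snoRNA points run from -0.73 to 0.74 with the knockdown groups low, and the host gene points stay between -0.08 and 0.08.

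The H/ACA and C/D classes had close counts and medians. Against both controls 9 of 20 H/ACA RNAs and 14 of 31 C/D RNAs fell, with median changes of -0.62 and -0.56. Over all genes 1.87% were called lower. The medians differed by -0.07, and this difference ranged from -0.11 to 0.03 as single arrays were left out, turning above 0 without Mock array 1. Against sirEGFP alone 3 of 20 H/ACA RNAs and 1 of 31 C/D RNAs fell, where 0.722% of all genes were called lower. The medians were -0.57 and -0.39, a difference of -0.17 (-0.20 to -0.06 with single arrays left out). The H/ACA count rests on Snora73a and Snora73b, which share a host, and on Snora74a. No test of the difference between the classes was made. Without single arrays the counts against both controls ran from 5 to 12 in H/ACA and from 4 to 16 in C/D, both lowest without Mock array 1.

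Against sirEGFP alone, the control that also received an siRNA, fewer snoRNAs were called. With both siRNAs together 4 of 51 fell (Snora73a, Snora73b, Snora74a and Snord52), where 1.93% of all genes were called and 0.722% were called lower. The median was -0.46, and 27 members were lower at an unadjusted p under 0.05 (limma), as were 5.48% of all genes. All 6 knockdown arrays lay below all 3 sirEGFP arrays for 10 members, against 2.11% of all genes. These were Snora44, Snora73a, Snora73b, Snora74a, Snord14e, Snord47, Snord49b, Snord52, Snord61 and Snord87. The count of 4 became 2 without sirEGFP array 3 and 11 without oligo 1 array 2, and it stayed at 4 without the 3 outlying arrays. The call of Snora74a (-0.78, adjusted p = 0.048) was lost under 12 of 20 alternatives, with adjusted p between 0.0083 and 0.303.

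By single siRNA, oligo 1 lowered 3 members against sirEGFP (Snora73a, Snora73b and Snord52), where 2.47% of all genes were called and 1.43% were called lower, and the median was -0.34. Oligo 2 lowered 7 against sirEGFP, where 2.26% of all genes were called and 0.742% were called lower, and the median was -0.64. Its 7 were the same 3 and Snora21 (-0.76, adjusted p = 0.046, limma), Snora74a (-1.04, adjusted p = 0.020), Snord53 (-0.92, adjusted p = 0.044) and Snord73a (-0.74, adjusted p = 0.043). The oligo 1 changes of these 4 were -0.51, -0.52, -0.17 and -0.24. The comparisons share the sirEGFP arrays. The oligo 1 count was 1 without sirEGFP array 2 and 5 without oligo 1 array 2. The oligo 2 count was 1 without sirEGFP array 3, 2 without oligo 2 array 1 or 2, 3 without sirEGFP array 2, and 4 without Mock array 3 or oligo 1 array 3.

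Against Mock, oligo 1 lowered 4 members (Snora73a, Snora73b, Snord49a and Snord52) and oligo 2 lowered 20. Over all genes 2.75% were called with oligo 1 and 4.25% with oligo 2, of which the lower calls made up 1.40% and 1.32% of all genes. The medians were -0.53 and -0.84. The 20 included 5 that were not called against both controls, namely Snora62, Snord33, Snord35a, Snord53 and Snord95. The largest oligo 2 change against Mock was that of Snord35a. It stood at 6.71, 5.35 and 6.39 with oligo 2, against 8.24, 7.46 and 7.52 in Mock, a change of -1.59 (SE 0.38, adjusted p = 0.028, limma). Its sirEGFP values of 7.38, 6.24 and 6.59 overlapped those of oligo 2, and the change against sirEGFP was -0.59 (adjusted p = 0.59). Snora62 was similar, with a change of -0.57 against Mock (adjusted p = 0.020) and 0.03 against sirEGFP. The oligo 1 count was 0 without Mock array 1, 1 without Mock array 3 or oligo 1 array 3, 2 without oligo 1 array 1 or without the 3 outlying arrays, 7 without Mock array 2 and 8 without oligo 1 array 2. The oligo 2 count was 3 without Mock array 1, 7 without oligo 2 array 2, 8 without Mock array 3 and 11 without oligo 2 array 3.

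The siRNAs were also set against each other. Oligo 2 gave the lower mean for 43 of the 51 snoRNAs, with a median difference of -0.25 against -0.03 over all genes. None was called in limma, where 3.67% of all genes were called and 1.37% were called lower, and 10 (19.6%) had a 95% interval that leaves out 0, near the 14.4% of all genes. Of the 10, 8 were lower with oligo 2 (15.7% of members, and 6.75% of all genes). Snord53 differed most on the low side, standing at 8.44, 7.83 and 8.77 with oligo 2, against 9.07, 9.16 and 9.09 with oligo 1. It differed by -0.75 (SE 0.22, adjusted p = 0.082), with no overlap between the siRNAs. All oligo 2 arrays lay below all oligo 1 arrays for 9 of the 51 members and 9.14% of all genes. Snord53 was called under the replicate block (adjusted p = 0.015) and with array weights (0.018), and its highest adjusted p over the 20 alternatives was 0.446. Snord118 and Snord16a were higher with oligo 2, by 0.80 and 0.31. The count of 0 became 1 without sirEGFP array 1, sirEGFP array 3 or oligo 2 array 1, each time by Snord118. It was 3 under the replicate block (Snord53, Snord118 and Snord35a, the last at -0.62 with adjusted p = 0.033) and 11 with array weights.

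SirEGFP against Mock called no snoRNA and no other gene in limma (0.00% of all genes). Of the members, 38 of 51 were lower with sirEGFP, with a median of -0.12 against 0.02 over all genes. Snora62, Snord15b, Snord33, Snord35a and Snord96a were lower at an unadjusted p under 0.05 (9.80% of members, and 2.42% of all genes). Snora62 stood at 5.43, 5.42 and 5.64 with sirEGFP, against 6.11, 6.27 and 5.90 in Mock, with no overlap (-0.60, adjusted p = 0.52). All sirEGFP arrays lay below all Mock arrays for 3 of the 51 members and 3.87% of all genes. Of the 5 members lower at an unadjusted p under 0.05, 4 lie in ribosomal protein genes, as do 21 of all 51 members, and Snord96a lies in Rack1.

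The snoRNAs were next grouped by the gene whose span holds them in the RefSeq table (GRCm38.p6). The table named 40 hosts for 50 members and none for Snord118. Members in non-coding hosts fell most often. Against both controls 11 of 13 fell, with a median of -0.78, against 9 of 21 in ribosomal protein genes (median -0.54) and 3 of 16 in other protein-coding genes (median -0.53). Over all genes 1.87% were called lower. Against sirEGFP alone 4 of 13, 0 of 21 and 0 of 16 fell, where 0.722% of all genes were called lower. The medians were -0.66, -0.31 and -0.44. At an unadjusted p under 0.05 the limma counts were closer, at 11, 15 and 10 against both controls and 11, 9 and 7 against sirEGFP. By level, 15 of 26 members at or above the members' median level were called against both controls, and 8 of 25 below it. The part of level in the contrast between hosts was not tested. The exceptions among non-coding hosts were Snora16a (Snhg12), a dim member, at -0.05 and Snord8 (Gm26590) at -0.12. All 4 members with no overlap against both controls and 8 of the 10 against sirEGFP were from non-coding hosts.

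The median of members in non-coding hosts was 0.24 lower than that in ribosomal protein hosts against both controls (a difference of -0.24), and -0.35 against sirEGFP. With single arrays left out these differences ran from -0.32 to -0.14 and from -0.43 to -0.27. No test of the difference was made. Counts against both controls without single arrays ran from 6 to 11, 3 to 12 and 0 to 7 in the 3 kinds, each lowest without Mock array 1. Without the 3 outlying arrays they were 6, 3 and 1.

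**Figure D4:**
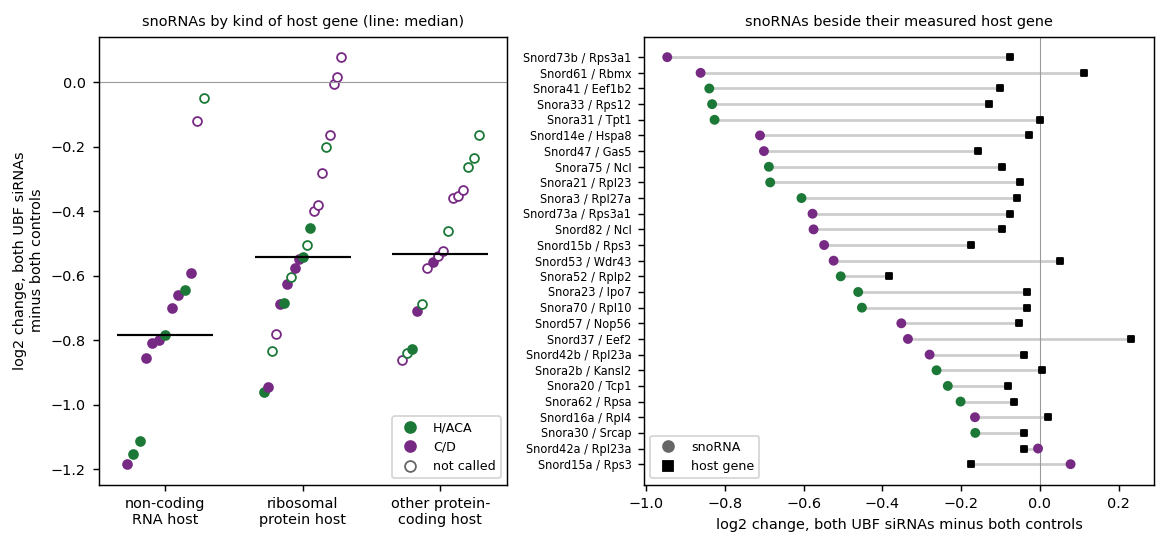
Left, log2 change of each snoRNA, both UBF siRNAs minus both controls (points, open where not called), by kind of host gene, with the median (line). Right, the change of 27 snoRNAs (circles) beside that of their measured host gene (squares). The non-coding group has the lowest median, and 25 of 27 circles lie left of their squares.

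RNAs released from 1 host did not always move alike. Snora73a and Snora73b of Snhg3 changed by -1.11 and -1.15, and Snord49a and Snord49b of 2410006H16Rik by -0.80 and -0.66. Snhg12 holds Snora44, which fell by 0.64, and Snora16a, a dim member, at -0.05. Among ribosomal protein hosts, Rps3 holds Snord15b (-0.55, called) and Snord15a (0.08). Snord15b stood at 6.33, 6.78 and 6.52 with oligo 1, 6.21, 5.76 and 6.23 with oligo 2, 6.84, 6.41 and 6.60 with sirEGFP, and 7.20, 6.91 and 7.15 in Mock. It was high in Mock, and its oligo 1 values overlapped with sirEGFP. Snord15a, a dim member, ranged over 4.09 to 4.72 in knockdown cells and 3.83 to 4.94 in control cells.

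Other pairs were closer. Rps3a1 holds Snord73b and Snord73a (-0.95 and -0.58, both called), and Rpl13a holds Snord35a and Snord33 (-0.78 and -0.40, neither called). Rack1 holds Snord96a and Snord95 (-0.56, called, and -0.54), and Rpl23a holds Snord42b and Snord42a (-0.28 and -0.005). Ncl, the gene of nucleolin, holds an H/ACA and a C/D RNA, Snora75 (-0.69, adjusted p = 0.14) and Snord82 (-0.57, adjusted p = 0.15, limma). No test of a difference within a pair was made.

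The measured host transcripts had changes near 0. Of the 40 hosts, 23 had a probe set of their own, covering 27 snoRNAs. The median host change was -0.05, against -0.52 for their snoRNAs, and the snoRNA change lay below the host's in 25 of 27. The exceptions were Snord42a and Snord15a. Only Rplp2, a ribosomal stalk protein, was called lower, at -0.38 (SE 0.08, adjusted p = 0.012, limma) against both controls and not called against sirEGFP alone (-0.24, adjusted p = 0.28), and its Snora52 changed by -0.51 (adjusted p = 0.088). Gas5, the only measured non-coding host, stood at 12.43, 12.75 and 12.62 with oligo 1, 12.53, 12.52 and 12.70 with oligo 2, 12.66, 12.75 and 12.86 with sirEGFP, and 12.78, 12.62 and 12.83 in Mock. Its groups overlapped, and its change of -0.16 (adjusted p = 0.39) was smaller than the -0.70 of Snord47 within it. Tpt1 changed by less than 0.01 while Snora31 within it fell by 0.83, and Hspa8 changed by -0.03 while Snord14e fell by 0.71. The host probe sets were bright, averaging between 7.62 and 13.03 with a median of 11.76, and how far a bright probe set registers a change was not tested.

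Because members of non-coding hosts fell most often, the starts of those hosts are shown. Host genes of snoRNAs are known for transcripts that begin with a run of pyrimidines, as ribosomal protein messages do. Each window holds 25 bases on either side of the RefSeq start (GRCm38.p6), on the transcript's strand. Capitals mark a run of at least 6 bases that are C or T, beginning within 10 bases of the start.
1110038B12Rik (Snord52), chr17:34952447-34952496, minus strand: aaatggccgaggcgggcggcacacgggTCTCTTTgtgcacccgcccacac
2410006H16Rik (Snord49a, Snord49b), chr11:62602852-62602901, plus strand: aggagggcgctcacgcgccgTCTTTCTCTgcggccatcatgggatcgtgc
Snhg12 (Snora44, Snora16a), chr4:132308653-132308702, plus strand: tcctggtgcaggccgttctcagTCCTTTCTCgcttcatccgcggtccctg
Gas5 (Snord47), chr1:161035141-161035190, plus strand: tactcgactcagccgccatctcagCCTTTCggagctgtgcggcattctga
Gas5 (Snord47), second start, chr1:161034576-161034625, plus strand: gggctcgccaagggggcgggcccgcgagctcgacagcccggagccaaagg
Gm36220 (Snord104), chr11:106500890-106500939, plus strand: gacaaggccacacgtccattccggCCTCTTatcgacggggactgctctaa
Snhg1 (Snord22), chr19:8723462-8723511, plus strand: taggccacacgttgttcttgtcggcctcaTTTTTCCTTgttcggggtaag
Snhg3 (Snora73a, Snora73b), chr4:132353662-132353711, minus strand: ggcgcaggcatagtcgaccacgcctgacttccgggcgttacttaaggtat
The table held windows for 7 of the 10 non-coding hosts, 9 windows in all. Gas5 has 1 start with a run and 1 without, and 1110038B12Rik has 2 starts whose windows overlap and share the same run, of which 1 is shown. Such a run was present in 7 of the 9 windows and 6 of the 7 genes among non-coding hosts, against 5 of 11 windows of ribosomal protein hosts, 4 of 12 of other hosts and 22.2% of the 32851 windows in the table. The search covered the transcript's strand only. Whether such a run has any part in the falls was not tested. The window of Snhg3, the host of Snora73a and Snora73b, held none. That of Snhg12 held one above both Snora44, which fell, and Snora16a, a dim member that was not called.

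The proteins that bind snoRNAs were examined as a related list. Against both controls, where 1.87% of all genes were called lower, only Gar1 of the 4 H/ACA core proteins fell, at -0.32 (SE 0.08, adjusted p = 0.032, limma). It stood at 8.39, 8.69 and 8.52 with oligo 1, 8.63, 8.65 and 8.46 with oligo 2, 9.02, 8.89 and 8.91 with sirEGFP, and 8.81, 8.80 and 8.82 in Mock, with no overlap between knockdown and control arrays. The call was lost under 12 of the 20 alternatives, and against sirEGFP alone it was not called (-0.38, adjusted p = 0.063). Dkc1, Nhp2 and Nop10 were not called, with changes of -0.16 to -0.27. None of the 4 C/D core proteins (Fbl, Nop56, Nop58 and Snu13) was called, with changes of -0.05 to -0.14, and none was lower at an unadjusted p under 0.05.

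Of 11 assembly factors, 2 of the C/D pathway fell against both controls, where 1.87% of all genes were called lower. Znhit3 stood at 8.62, 8.95 and 8.74 with oligo 1, 9.26, 9.01 and 8.99 with oligo 2, 9.43, 9.58 and 9.57 with sirEGFP, and 9.69, 9.79 and 9.49 in Mock. It was lower on every knockdown array than on every control array (-0.66, SE 0.09, adjusted p = 0.00084, limma). Set against sirEGFP alone, its change was -0.60 (adjusted p = 0.013), which missed the threshold when sirEGFP array 2 or 3 was left out (adjusted p up to 0.0989). Against the same control oligo 1 lowered it by 0.76 (adjusted p = 0.0062), and the oligo 2 change of -0.44 was not called (adjusted p = 0.10). Nufip1, which joins the same assembly complex, fell by 0.34 (SE 0.08, adjusted p = 0.019). It stood at 7.86, 7.89 and 7.83 with oligo 1, 8.36, 8.20 and 8.26 with oligo 2, and 8.30 to 8.52 over the control arrays, so that only oligo 2 array 1 reached the controls. The call was lost without sirEGFP array 2, oligo 1 array 3 or the 3 outlying arrays (adjusted p up to 0.0857). Against sirEGFP alone Nufip1 changed by -0.37 (adjusted p = 0.063). Its oligo 1 change was -0.57 (adjusted p = 0.011, lost in the same 3 cases), while its oligo 2 change was -0.16 (adjusted p = 0.62). Oligo 2 minus oligo 1 was 0.41 (adjusted p = 0.049, lost under 16 of the 20 alternatives). The other 9 assembly factors changed by -0.10 to 0.14 and were not called.

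For 5 members a second probe set was available. It gave the same values on all 12 arrays for Snora30 and Snord118, so the copies count as 1 measurement. For Snora21, Snora3 and Snord58b the largest difference on an array was 0.19, 0.13 and 0.32. Changes by the second probe set were -0.72, -0.60 and -0.66, against -0.68, -0.61 and -0.63 by the probe set used. The direction was the same by either probe set for these 5 members.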

How the data were processed

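The authors deposited a log2 expression value for each probe set on each of 12 arrays. Per the labels' protocols, 100 ng of total RNA gave 2.5 ug of labelled cDNA per array. How probes were summarised and arrays normalised is not given in the sources here. Among tools, the submitters' processing notes list limma, without a version. Values were used as deposited by the authors. The 21789 probe sets with 1 symbol in the platform annotation were named through RefSeq (21698 matched by Entrez identifier), and the probe set with the highest mean was kept for each gene. Genes were tested with limma 3.58.1 under R 4.3.3 (lmFit, eBayes, two-sided, 4 group coefficients, 8 residual degrees of freedom) and called at a Benjamini-Hochberg adjusted p under 0.05 over 19938 genes. Changes are differences of group means. The script was tested on simulated data.

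The members, lists and rules for naming genes were chosen with earlier results of these data known. Named were Ubtf, every member called in any comparison, the 6 members of each class with the smallest p against sirEGFP, the rRNA-processing list, pairs sharing a host (1 pair is not reported here), the members with the highest and lowest level, hosts, and of the proteins the 4 with the smallest p and all called. The other members given by value were chosen after their values were seen. A host is the gene with the shortest span that holds the snoRNA. Strand was planned as a condition, but the table used has no strand column, so it was not applied. A list of 4 imprinted brain snoRNAs had no measured member. Markers of epithelium, macrophages, skeletal muscle and adipocytes had median levels of 4.27, 4.29, 6.06 and 4.85, against 8.99 for fibroblasts. Of these 20 genes, Csf1r and Fabp4 were called higher against both controls, and their part in the results was not tested.

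Replicate numbers are shared between groups, and the fit reported here did not pair arrays by them. Of 18 same-number pairs, 12 correlated above 0.1 (r from -0.24 to 0.55), while pairs of different numbers ran from -0.62 to 0.49. Whether arrays of 1 number share a batch was not tested. Counts with a replicate block are given below. The alternatives were centring, quantile normalization, array weights, a trended robust prior, all probe sets, a filter on dim genes, a replicate block and each array left out. Leaving out the 3 arrays farthest out within their groups was added after the data were seen. The number of arrays limits the precision.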

Additional observations from a re-analysis of the deposited data

How the results depend on the processing

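Under the 20 alternatives the median of the members stayed below 0 in each comparison of UBF siRNAs with controls, while counts moved. The share of all genes called under each alternative is not reported here. Whether the counts of members moved with that share cannot be read from them. With the replicate block, calls were 9 for both siRNAs and 12 for oligo 2 against sirEGFP, 8 for oligo 1 and 32 for oligo 2 against Mock, and 3 for oligo 2 against oligo 1, and it moved no other count of snoRNAs by over 1.5 times. With array weights they were 10 for both siRNAs and 11 for oligo 1 against sirEGFP, 25 for oligo 1 and 32 for oligo 2 against Mock, and 11 for oligo 2 against oligo 1. With adjustment over all probe sets they were 8 for both siRNAs against both controls, 2 for both and 1 for oligo 2 against sirEGFP, 0 for oligo 1 and 6 for oligo 2 against Mock. Without the 3 outlying arrays they were 10 for both siRNAs against both controls and 2 for oligo 1 against Mock. Centring, quantile normalization and the filter on dim genes each gave 1 call for oligo 2 against oligo 1. With single arrays left out, calls ran from 9 to 28 for both siRNAs against both controls and 2 to 11 against sirEGFP. They ran from 1 to 5 and 1 to 9 for oligo 1 and oligo 2 against sirEGFP, and from 0 to 8 and 3 to 27 against Mock. For oligo 2 against oligo 1 they ran from 0 to 1, and sirEGFP against Mock stayed at 0.

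Against sirEGFP, where neither was called, Snord33 turned above 0 with array weights (0.21), without sirEGFP array 1 (0.22), without oligo 1 array 2 (0.04) and without the 3 outlying arrays (0.35). With single arrays left out it ran from -0.20 to 0.22. Snord35a did so with array weights (0.011), without sirEGFP array 1 (0.046) and without the 3 outlying arrays (0.089). With single arrays left out it ran from -0.53 to 0.046. The cause was not tested.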
